A study of Chlorocebus sabaeus with 6 samples.

Results

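Glycolysis turns glucose into pyruvate and lactate, and the hypoxia-inducible factors (HIFs) are the transcription factors that raise many of its genes when oxygen is short. Prolyl hydroxylases of the EGLN family use oxygen to mark the HIF alpha subunits, and the VHL protein then directs them to destruction. When oxygen is low the alpha subunits HIF1A and EPAS1 escape this, pair with ARNT, and switch on genes of glucose uptake, glycolysis, acid-base balance, mitophagy and collagen hydroxylation. HIF activity is known to be set mainly through the stability of these proteins, which mRNA levels do not show.

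The genes described here are the glycolytic enzymes, the lactate and pyruvate genes, the HIF factors with their oxygen sensors, and a group of HIF targets. They were chosen by name from a list of 41 gene symbols, and 39 of these are among the gene symbols of the deposited table of 18050 genes. The other 2, GPI and PGAM1, have rows under a LOC symbol. Their gene IDs match GPI and PGAM1 in RefSeq (assembly mChlSab1.0.hap1). They are described from those rows and are left out of the counts of members.

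RNA was measured in COS7, a line made from African green monkey kidney with SV40. The DKO group was 3 samples of COS7 cells in which ATL2 and ATL3 were knocked out. These genes encode atlastins, GTPases that join membranes of the endoplasmic reticulum. The WT group was 3 samples of COS7 cells with no knockout. All were kept in the same serum-containing medium at one temperature and CO2 setting, and the labels name no oxygen setting. The labels give neither the number of knockout clones nor whether samples were separate cultures, and a p-value here covers only how the samples themselves vary, which could be technical variation alone.

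Libraries held 14197344 to 15693049 estimated counts in DKO and 14923619 to 15127039 in WT. ATL2 averaged 5.94 FPKM in DKO and 30.6 FPKM in WT, and ATL3 4.88 in DKO and 35.8 in WT; both fell (-2.21 and -2.83 on the log2 scale, edgeR adjusted p = 0.00029 and 3.7e-05). FPKM is the count scaled to transcript length and library depth. DKO replicate 3 stood apart: at equal totals it differed from DKO replicates 1 and 2 by a chi-square of 76.9 and 81.9 per gene, against 1.54 between those and 1.85 to 3.62 between WT libraries. Markers of cell type moved strongly and both ways. Of 6 fibroblast markers tested, PDGFRA (6.10 on the log2 scale) and PDGFRB (3.23) rose, FN1 (-3.10), COL1A1 (-2.75) and S100A4 (-1.56) fell, and VIM (-0.17) was not called. COL1A2 was at or near 0 in both groups and THY1 was at 0 in all 6 libraries. Of 5 epithelial markers tested, EPCAM (1.34) and KRT19 (2.31) rose, CDH1 (-5.69) and KRT18 (-0.78) fell, and KRT8 (-0.10) was not called. The 8 fibroblast markers summed to 1525 to 1580 FPKM in DKO and 3360 to 3451 in WT, of which FN1 averaged 207 in DKO and 1838 in WT, and the 5 epithelial markers to 528 to 689 in DKO and 661 to 754 in WT. The part of these differences in the results below was not tested, and in such bulk samples fewer cells of a type and less RNA per cell cannot be told apart.

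These genes did not move in 1 direction. Of the 38 members that passed the filter on low counts, 7 rose in DKO, 6 fell and 25 were not called, where a call is an edgeR adjusted p below 0.05. Over all 13094 genes tested, 23.3% were called higher and 22.2% lower, 45.5% in all, against 34.2% of members. Their median log2 fold change was 0.01, against -0.01 for all genes tested, and the median size was 0.36 against 0.47. The samples of the genotypes did not overlap in CPM for 22 of the 38 members, 11 higher and 11 lower in DKO. CPM are counts scaled to library totals adjusted by TMM. Over all genes tested, 30.5% lay wholly higher and 32.0% wholly lower, 62.5% in all. At least 2-fold, 3 members were called higher and 3 lower, against 9.83 and 12.1% of all genes. When DKO replicate 3 was left out, 13 members were called higher and 16 lower, against a background of 36.0 and 38.6%. In that fit 76.3% of members and 74.6% of all genes were called. The share of members was thus under the background with all samples but not there. Calls were also counted by level, without the share of all genes called at each level, which was not worked out. Of the 8 members with at least 100 FPKM in a group 1 was called, 7 of the 18 between 10 and 100 FPKM, and 5 of the 13 under 10 FPKM. GPI and PGAM1, outside these counts, averaged over 100 FPKM in WT and were called. CA9 was the 1 member under the filter.

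**Figure D1:**
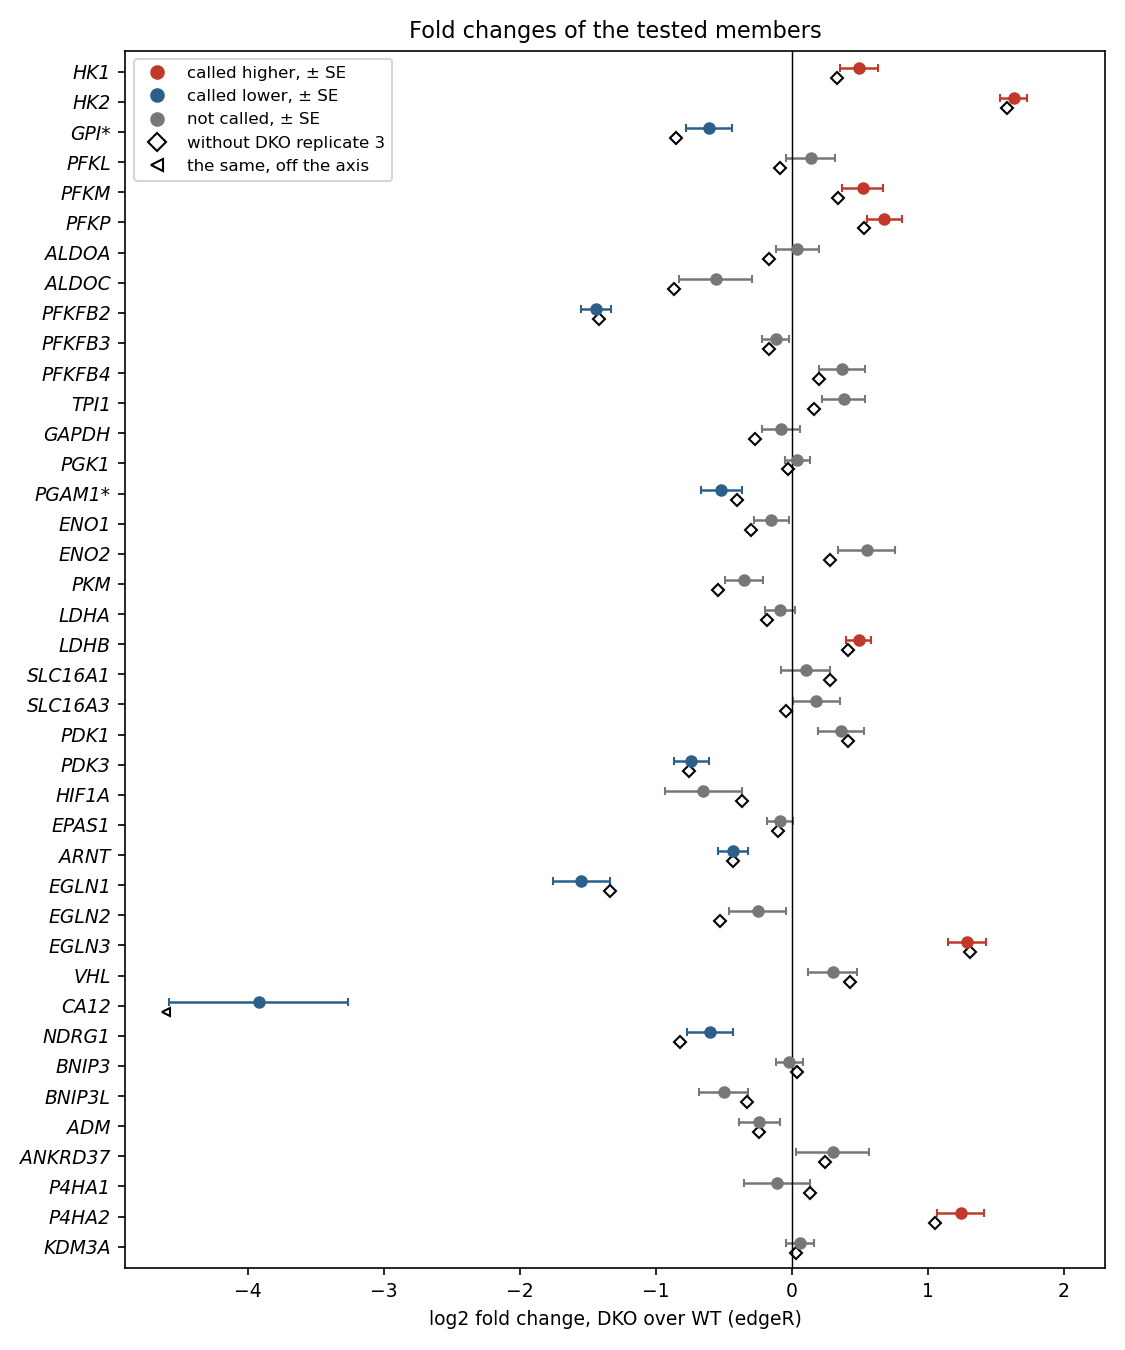
Fitted log2 fold changes of DKO over WT for the 38 tested members and for GPI and PGAM1 (asterisks, matched by gene ID), as filled points with SE bars; open diamonds are the fit without DKO replicate 3, and the open triangle for CA12 is off the axis. HK2, EGLN3 and P4HA2 lie farthest to the right at 1.63, 1.29 and 1.24, and the 6 members of the later steps found by symbol lie between -0.35 and 0.55.

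Of the 7 tested members of the early steps, from hexokinase to aldolase, 4 rose and 3 were not called, with a median log2 fold change of 0.49. Over all genes tested 23.3% were called higher and 22.2% lower. GPI, an early step outside this count, was called lower. In the fit without DKO replicate 3, 4 of the 7 rose and 2 fell, with a median of 0.33, against 36.0 and 38.6% of all genes. The hexokinases of the entry step phosphorylate glucose and so hold it in the cell. HK2 (gene ID 103220012), the isoform often raised in growing and tumour cells, had 10.75, 11.07 and 11.2 FPKM in the DKO samples and 3.61, 3.65 and 3.73 FPKM in the WT samples. Every DKO sample lay far above every WT sample, with little spread in either group, and the rise of HK2 was 1.63 on the log2 scale (SE 0.10, edgeR adjusted p = 4e-05). HK1 (gene ID 103216074), the broadly expressed isoform, had 48.87, 47.7 and 60.35 FPKM in DKO and 38.95, 38.93 and 37.62 in WT. It rose by 0.49 (SE 0.14, edgeR adjusted p = 0.023), with the highest value in DKO replicate 3. Leaving out that library gave 0.33 for HK1 and 1.58 for HK2, both still called. The HK1 call was lost without WT replicate 1, 2 or 3 (log2 fold changes 0.49, 0.48 and 0.47, edgeR adjusted p = 0.081, 0.077 and 0.092). HK2 made up 17.5 ± 1.66% of the summed FPKM of HK1 and HK2 in DKO and 8.69 ± 0.288% in WT (SD, n = 3 each; exact two-sided permutation p = 0.1, the smallest that 3 samples against 3 allow).

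HKDC1 (gene ID 103216076), a further hexokinase and no member of the list, fell. It had 13.96, 13.45 and 16.77 FPKM in DKO and 85.62, 91.93 and 92.43 FPKM in WT, and fell by 2.54 on the log2 scale (SE 0.14, edgeR adjusted p = 2.3e-05). In WT it was the most abundant of the 3 hexokinases, with 68.1 ± 1.17% of their summed FPKM, against 18.9 ± 0.206% in DKO. HK1 held 66.9 ± 1.22% in DKO and 29.2 ± 1.15% in WT. Summed over HK1, HK2 and HKDC1, the level was 72.2 to 88.3 FPKM in DKO and 128.2 to 134.5 FPKM in WT, so the total was lower in every DKO sample although both listed hexokinases rose. This sum was chosen after its values were seen and carries no test. HK1 and HKDC1 are neighbours in the RefSeq annotation, with 0 protein-coding genes between them.

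GPI, which turns glucose 6-phosphate into fructose 6-phosphate, fell. Its row (gene ID 103234470) had 238.88, 228.02 and 326.14 FPKM in DKO and 427.81, 433.17 and 398.75 FPKM in WT. DKO replicate 3 came closest to WT, and the groups did not overlap (-0.61 on the log2 scale, SE 0.17, edgeR adjusted p = 0.025). Its difference was -0.85 without DKO replicate 3. The call was lost in every other fit that left out a sample: -0.53 and -0.51 without DKO replicate 1 and 2 (edgeR adjusted p = 0.07 and 0.059), and -0.60, -0.60 and -0.65 without WT replicate 1, 2 and 3 (edgeR adjusted p = 0.075, 0.073 and 0.06).

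Phosphofructokinase commits the sugar to glycolysis, and its subunits did not change alike. PFKP (gene ID 103237780) had 75.17, 75.72 and 92.25 FPKM in DKO and 54.11, 53.02 and 50.08 in WT, and rose by 0.68 (SE 0.13, edgeR adjusted p = 0.0057). PFKM (gene ID 103238217) had 48.13, 48.59 and 63.05 FPKM in DKO and 39.96, 38.21 and 36.98 in WT, and rose by 0.52 (SE 0.15, edgeR adjusted p = 0.028). For both genes all DKO samples lay above all WT samples, and DKO replicate 3 was highest. Leaving it out gave 0.53 for PFKP and 0.34 for PFKM, both called. The PFKM call was lost without WT replicate 1, 2 or 3 (0.55, 0.51 and 0.49, edgeR adjusted p = 0.078, 0.092 and 0.1). PFKL, the liver form and the most abundant in WT, had 79.53, 74.03 and 107.58 FPKM in DKO and 81.58, 88.17 and 75.82 in WT and was not called (0.14, SE 0.18). It held 39.2 ± 1.80% of the summed subunits in DKO and 47.4 ± 1.53% in WT, with no overlap of the groups.

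The bifunctional PFKFB enzymes make and break fructose 2,6-bisphosphate, the strongest activator of phosphofructokinase. PFKFB2 (gene ID 103230179) had 1.76, 1.64 and 1.65 FPKM in DKO and 4.72, 4.72 and 4.9 FPKM in WT. All 3 DKO samples were alike and well under all WT samples, and the gene fell by 1.44 on the log2 scale (SE 0.11, edgeR adjusted p = 8.6e-05), and by 1.42 when DKO replicate 3 was left out. PFKFB3, the main isoform here and a known HIF target, averaged 29.5 ± 0.841 FPKM in DKO and 32.5 ± 1.54 in WT and was not called (-0.12, SE 0.10). It was called lower without DKO replicate 3 (-0.17, edgeR adjusted p = 0.0025). PFKFB4 averaged 4.88 ± 0.801 in DKO and 3.92 ± 0.282 in WT (0.37, SE 0.17, not called). Summed over the 3 genes, the level was 36.1 ± 1.54 FPKM in DKO and 41.2 ± 1.48 in WT, lower in each DKO sample.

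Aldolase splits the 6-carbon sugar. ALDOA, one of the most abundant members, had 920.68, 888.7 and 1215.9 FPKM in DKO and 1036.3, 1076.78 and 979.84 in WT. DKO replicates 1 and 2 lay under all WT samples and DKO replicate 3 above them, and the gene was not called (0.04, SE 0.16). Its direction turned without DKO replicate 3, and it was called lower (-0.17, edgeR adjusted p = 0.00012). ALDOC was low at 2.94 ± 0.976 FPKM in DKO and 4.18 ± 0.259 in WT (-0.56, SE 0.27, edgeR adjusted p = 0.13). It was called lower without DKO replicate 3 (-0.87, edgeR adjusted p = 2.2e-05).

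**Figure D2:**
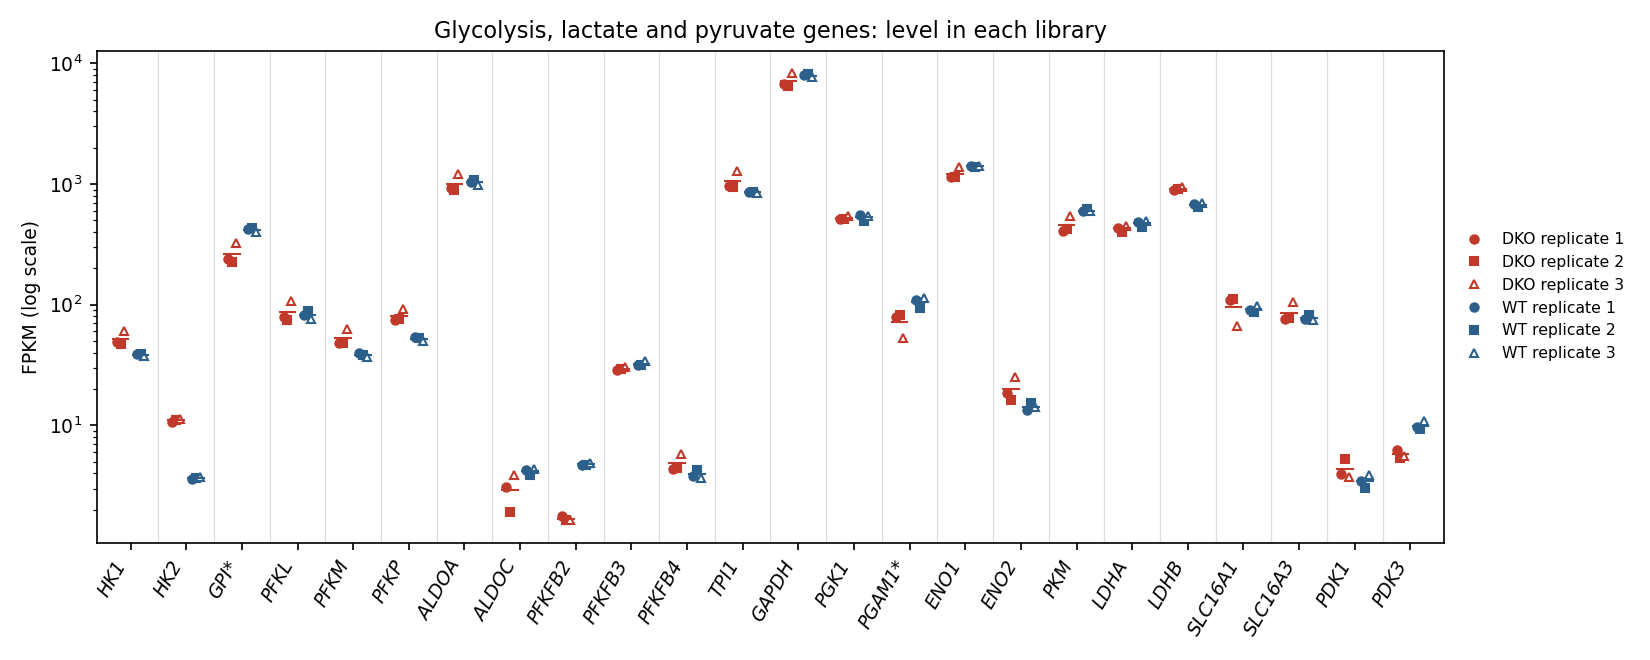
FPKM on a log axis of the glycolytic, lactate and pyruvate genes in pathway order, with 1 point for each library (DKO in red, left; WT in blue, right; replicate 3 as open triangles) and a line at the group mean. Asterisks mark genes matched by gene ID. HK2 and PFKFB2 stand clear between genotypes with hardly any spread, while from TPI1 to LDHA the genotypes overlap or lie close together on this axis, PGAM1 being the 1 gene called there, and DKO replicate 3 is the highest DKO point in all but PGAM1.

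In the later steps of glycolysis 0 of 6 members were called by edgeR (TPI1, GAPDH, PGK1, ENO1, ENO2 and PKM), against 45.5% of all genes. PGAM1, a later step outside this count, was called lower. The 6 include the most abundant transcripts of the list. DESeq2 and limma-voom called 0 as well, while at an unadjusted p under 0.05 the counts were 3 with edgeR and 2 with each of the others. PKM was called in the limma fits on FPKM and without the filter on low counts. GAPDH, which makes the first NADH of the pathway, had 6703.03, 6512.52 and 8305.73 FPKM in DKO and 8015.53, 8095.85 and 7675.53 FPKM in WT. DKO replicates 1 and 2 lay under the WT samples and DKO replicate 3 above them (-0.08, SE 0.14, edgeR adjusted p = 0.66). ENO1, the main enolase, had 1133.64, 1136.89 and 1395.92 FPKM in DKO and 1411.45, 1395.92 and 1399.92 in WT (-0.15, SE 0.13). PKM, which makes pyruvate, had 407.97, 421.54 and 538.96 in DKO and 596.75, 616.44 and 597.6 in WT. Every DKO sample was below every WT sample for PKM, but it missed the threshold (-0.35, SE 0.14, edgeR adjusted p = 0.085).

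Of the triose and phosphoglycerate genes, TPI1 and PGK1 were not called and the PGAM1 row fell. TPI1, the triose isomerase, had 966.13, 952.95 and 1281.01 FPKM in DKO and 865.28, 860.25 and 839.71 in WT (0.38, SE 0.16, edgeR adjusted p = 0.093), with all DKO samples higher. PGK1, which makes the first ATP of the pathway, had 518.01, 516.48 and 546.03 in DKO and 549.32, 498.31 and 540.6 in WT, overlapping throughout (0.04, SE 0.09). The PGAM1 row (gene ID 103216807), the phosphoglycerate mutase, had 78.75, 81.64 and 53.5 FPKM in DKO and 110.1, 93.24 and 112.64 in WT. All DKO samples were lower, and DKO replicate 3 was the lowest (-0.52, SE 0.15, edgeR adjusted p = 0.028). The call was lost without WT replicate 1 or 3 (-0.49 and -0.48, edgeR adjusted p = 0.1 and 0.11). ENO2, the enolase best known from neurons, averaged 20.1 ± 4.72 FPKM in DKO and 14.3 ± 0.982 in WT (0.55, SE 0.21, edgeR adjusted p = 0.07) and was called higher without DKO replicate 2 (0.69, edgeR adjusted p = 0.036).

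In the fit without DKO replicate 3, 5 of these 6 members were called: GAPDH (-0.27, edgeR adjusted p = 6.6e-10), ENO1 (-0.30, 6.7e-11) and PKM (-0.54, 1e-17) lower, and TPI1 (0.16, 0.00012) and ENO2 (0.28, 0.001) higher. In that fit 74.6% of all genes tested were called. The 13 glycolytic members from HK1 to PKM, leaving out the PFKFB genes, held 1.47 to 1.96% of all counts in the DKO libraries and 1.69 to 1.76% in the WT libraries. DKO replicate 3 was above and DKO replicates 1 and 2 were below the whole WT range (exact two-sided permutation p = 0.6). Relative to DKO replicates 1 and 2, these 6 members lay 0.20 to 0.68 higher (log2 CPM) in DKO replicate 3, with a median of 0.48, against 0.08 over all genes tested.

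At the lactate step LDHB rose and LDHA was not called. LDHB encodes the H subunit, known from heart, and LDHA the M subunit, a HIF target known from muscle. LDHB (gene ID 103218738) had 890.81, 901.66 and 939.54 FPKM in DKO and 684.46, 641.01 and 696.81 FPKM in WT. The groups lay far apart and LDHB rose by 0.49 (SE 0.09, edgeR adjusted p = 0.0049). Among members found by symbol it was the only called one with over 100 FPKM. The rise was 0.41 when DKO replicate 3 was left out. LDHA had 430.43, 404.35 and 451.42 FPKM in DKO and 484.71, 443.15 and 490.84 in WT, overlapping in 1 sample each, and was not called (-0.09, SE 0.11, edgeR adjusted p = 0.54). It was called lower without DKO replicate 3 (-0.18, edgeR adjusted p = 0.00019). LDHB made up 67.4, 69.0 and 67.6% of the summed LDHA and LDHB FPKM in DKO and 58.5, 59.1 and 58.7% in WT. The difference of 9.22 percentage points was far outside the spread of either group, though the exact test cannot go below p = 0.1 at this size.

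Pyruvate dehydrogenase kinases inhibit pyruvate dehydrogenase, the enzyme that turns pyruvate into acetyl-CoA inside the mitochondria. PDK3 (gene ID 103231727) had 6.25, 5.41 and 5.57 FPKM in DKO and 9.66, 9.3 and 10.82 in WT and fell by 0.74 on the log2 scale (SE 0.13, edgeR adjusted p = 0.003), and by 0.76 when DKO replicate 3 was left out. PDK1, a HIF target, averaged 4.32 ± 0.832 in DKO and 3.46 ± 0.430 in WT (0.36, SE 0.17, edgeR adjusted p = 0.12), and was called higher without DKO replicate 3 (0.41, edgeR adjusted p = 0.018). PDK1 was thus 42.8 ± 5.72% of the summed pair in DKO and 25.8 ± 1.10% in WT, without overlap. PDK2, outside the list and this sum, stood above both, with 14.6 ± 2.8 FPKM in DKO and 15.3 ± 1.05 in WT. PDK2 was not called (-0.02, SE 0.18), and was called lower without DKO replicate 3 (-0.23, edgeR adjusted p = 0.0049).

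The lactate carriers on the list, SLC16A1 and SLC16A3, were not called. SLC16A1 (MCT1) had 109.21, 112.24 and 66.86 FPKM in DKO and 91.04, 86.31 and 97.64 in WT: DKO replicates 1 and 2 lay above WT and DKO replicate 3 below (0.10, SE 0.18). It was called higher without DKO replicate 3 (0.28, edgeR adjusted p = 4.5e-07). SLC16A3 (MCT4), a HIF target, averaged 86.1 ± 16.9 in DKO and 78.0 ± 3.84 in WT (0.18, SE 0.17). The summed level of both carriers was 182 ± 8.69 FPKM in DKO and 170 ± 3.01 in WT, overlapping between genotypes (exact two-sided permutation p = 0.2).

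**Figure D3:**
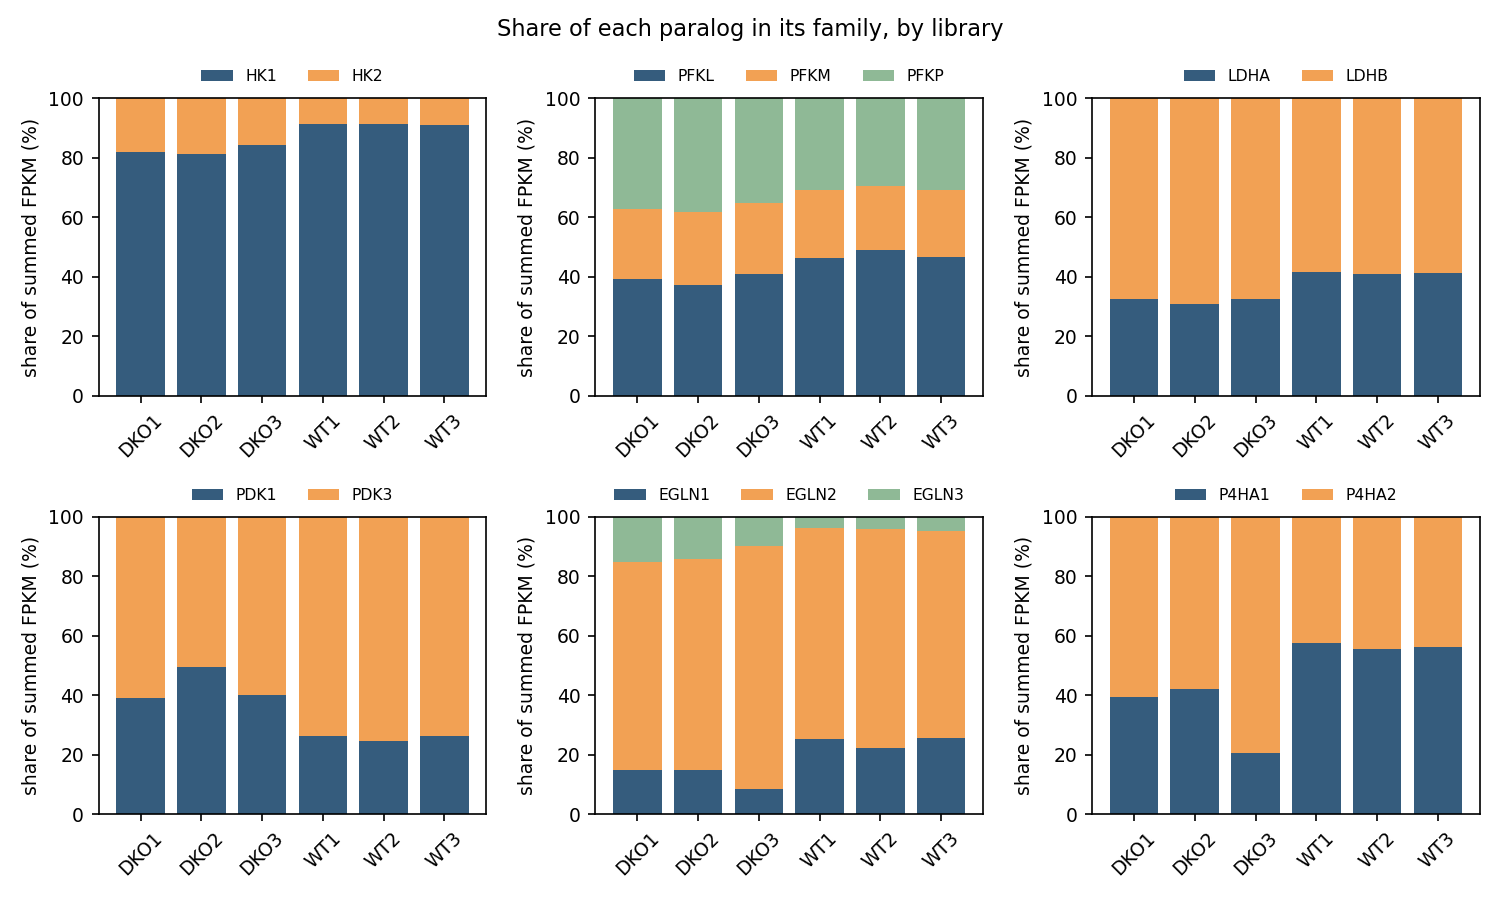
Share of each paralog in the summed FPKM of its family, 1 bar for each library, DKO left and WT right, for 6 families of the list. HK2, PFKP, LDHB, PDK1, EGLN3 and P4HA2 take a larger share in every DKO library than in any WT library, and DKO replicate 3 departs from the other DKO libraries in the EGLN and P4HA families. A background of shares over other gene families was not worked out, and in CPM 62.5% of all genes tested did not overlap between genotypes. Only listed genes are summed, without HKDC1 and PDK2. With HKDC1 added, HK1 held 66.9 ± 1.22% in DKO and 29.2 ± 1.15% in WT.

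Of the 3 HIF subunits on the list, ARNT fell and HIF1A and EPAS1 were not called. ARNT (gene ID 103247208), the shared partner of the alpha subunits, had 6.83, 7.67 and 6.76 FPKM in DKO and 10.34, 9.36 and 9.69 in WT. It fell by 0.43 on the log2 scale (SE 0.11, edgeR adjusted p = 0.017), with the same -0.43 when DKO replicate 3 was left out. That call was lost without DKO replicate 1 (-0.40, edgeR adjusted p = 0.059) and without WT replicate 1, 2 or 3 (-0.39, -0.47 and -0.44, edgeR adjusted p = 0.095, 0.051 and 0.07). HIF1A (gene ID 103229134) had 61.98, 65.51 and 31.42 FPKM in DKO and 83.4, 79.02 and 85.24 in WT. All DKO samples were lower, but DKO replicate 3 was so far below the rest that the wide spread left the gene uncalled (-0.65, SE 0.28, edgeR adjusted p = 0.1). Without DKO replicate 3 it was called lower at -0.37 (edgeR adjusted p = 5.7e-10). EPAS1 (HIF2 alpha) averaged 17.6 ± 0.666 in DKO and 19.4 ± 1.05 in WT (-0.09, SE 0.10, not called).

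Of the oxygen sensors, EGLN1 fell and EGLN3 rose. EGLN1 (PHD2, gene ID 103230756), the main HIF prolyl hydroxylase in most cells, had 4.77, 4.65 and 3.49 FPKM in DKO and 11.44, 10.59 and 11.02 in WT, and fell by 1.55 on the log2 scale (SE 0.21, edgeR adjusted p = 0.0011). EGLN3 (PHD3, gene ID 103228800), itself a well-known HIF target, had 4.87, 4.48 and 4.11 FPKM in DKO and 1.68, 1.89 and 2.08 in WT. It rose by 1.29 (SE 0.14, edgeR adjusted p = 0.00043), and neither gene had overlapping groups. Leaving out DKO replicate 3 gave -1.34 for EGLN1 and 1.31 for EGLN3. In DKO the 2 genes stood at nearly the same level, whereas WT had several times more EGLN1 than EGLN3. EGLN2 (PHD1), the most abundant of the 3, averaged 26.2 ± 6.55 in DKO and 32.4 ± 2.59 in WT (-0.25, SE 0.21, edgeR adjusted p = 0.38). It was called lower without DKO replicate 3 (-0.53, edgeR adjusted p = 1.7e-09). The summed level of the 3 sensors was 35.0 ± 5.53 FPKM in DKO and 45.3 ± 2.26 in WT, lower in all DKO samples. VHL averaged 4.77 ± 0.996 in DKO and 3.95 ± 0.492 in WT (0.30, SE 0.18, edgeR adjusted p = 0.2), and was called higher without DKO replicate 3 (0.43, edgeR adjusted p = 0.0064).

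For EGLN1, and for HIF1A in DKO replicate 3, the count per FPKM also differed. This measure follows the transcript length used in the authors' scaling. Relative to the WT mean and to each library's median gene, the count per FPKM was 90.6, 93.7 and 69.4% in the DKO samples for EGLN1. For HIF1A it was 101, 99.9 and 87.0%. Of 9031 well-covered genes, 3.03% moved by over 0.1 on the log2 scale in this measure between DKO and WT. EGLN1 moved by -0.254 and HIF1A by -0.063. Between DKO replicate 3 and the other DKO samples 12.6% moved by over 0.1, with EGLN1 at -0.408, HIF1A at -0.207 and PFKFB2 at -0.116. In the limma fits on FPKM the change of EGLN1 was -1.19 with 1 added and -1.35 with 0.1 added, and it was still called. Which transcripts were counted was not analysed here.

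**Figure D4:**
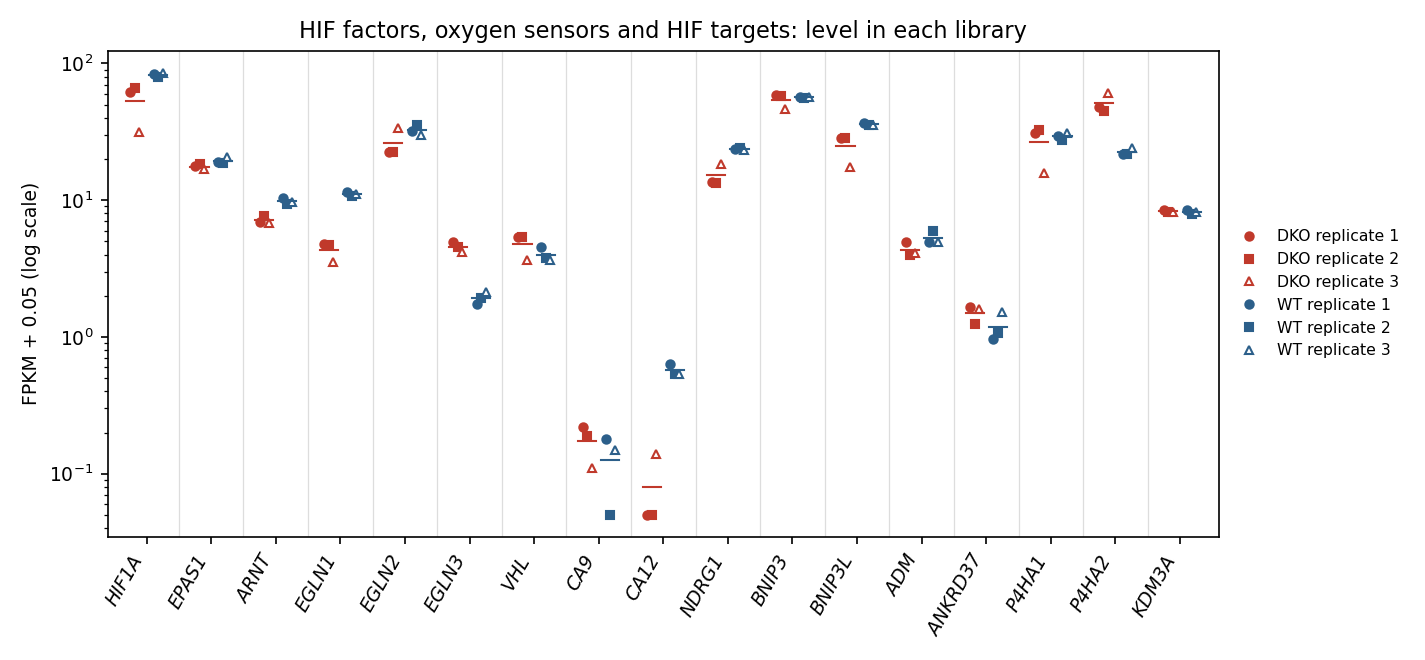
FPKM + 0.05 on a log axis of the HIF factors, oxygen sensors and other HIF targets in each library (DKO in red, left; WT in blue, right; replicate 3 as open triangles), with a line at the mean. EGLN1 and EGLN3 move in opposite directions, P4HA2 stands higher in all DKO samples, and DKO replicate 3 is the lowest DKO point for HIF1A, BNIP3L and P4HA1.

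The HIF targets outside glycolysis went both ways. Of the 9 tested, P4HA2 rose, CA12 and NDRG1 fell and 6 were not called, with a median log2 fold change of -0.11. Over all genes tested 23.3% were called higher and 22.2% lower, with a median of -0.01. In the fit without DKO replicate 3, 2 of the 9 rose and 3 fell, against 36.0 and 38.6% of all genes. P4HA2 (gene ID 103244505), an alpha subunit of the collagen prolyl hydroxylase of the endoplasmic reticulum, had 47.88, 44.84 and 61 FPKM in DKO and 21.64, 21.87 and 24.11 FPKM in WT. All DKO samples were well above WT, and the rise was 1.24 (SE 0.17, edgeR adjusted p = 0.001), or 1.05 when DKO replicate 3 was left out. Its paralog P4HA1, a HIF target too, had 31.16, 32.56 and 15.75 FPKM in DKO and 29.3, 27.5 and 30.85 in WT, with DKO replicate 3 far below all others (-0.11, SE 0.24, edgeR adjusted p = 0.73). Its direction turned without DKO replicate 3, and it was called higher (0.13, edgeR adjusted p = 0.041). P4HA2 made up 60.6, 57.9 and 79.5% of the pair in DKO and 42.5, 44.3 and 43.9% in WT.

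NDRG1 (gene ID 103237472), a stress-responsive gene long used as a hypoxia marker, had 13.52, 13.39 and 18.41 FPKM in DKO and 23.77, 24.21 and 23.27 in WT. All DKO samples were lower, DKO replicate 3 the least so, and the gene fell by 0.60 on the log2 scale (SE 0.17, edgeR adjusted p = 0.025). The fall was 0.82 without DKO replicate 3. The call was lost without any other library: -0.52 without DKO replicate 1 or 2 (edgeR adjusted p = 0.071 and 0.066), and -0.61, -0.60 and -0.62 without WT replicate 1, 2 and 3 (edgeR adjusted p = 0.077, 0.074 and 0.073). CA12 (gene ID 103245509), a membrane carbonic anhydrase, had 0, 0 and 3 counts in DKO and 19, 16 and 18 in WT. At equal TMM-adjusted totals DKO held 5.92% of the WT level (exact 95% counting interval 1.18 to 18.3%). That interval covers counting error only, and CA12 was called lower (edgeR adjusted p = 0.0027). Its DKO counts all came from replicate 3, and without that library CA12 was at least 5.54-fold lower against a floor of 3 counts per library. CA9, the carbonic anhydrase most used as a hypoxia marker, had 5, 4 and 2 counts in DKO and 4, 0 and 3 in WT, too few to test: DKO was at 164% of WT with an interval from 58.2 to 500.1%.

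The remaining targets showed little. BNIP3 and BNIP3L are mitophagy receptors. BNIP3 averaged 54.3 ± 7.08 FPKM in DKO and 56.6 ± 0.491 in WT (-0.02, SE 0.10). BNIP3L had 28.4, 28.41 and 17.33 FPKM in DKO and 36.81, 35.32 and 35.17 in WT, lower in every DKO sample but just over the threshold (-0.50, SE 0.18, edgeR adjusted p = 0.053). It was called lower without DKO replicate 3 (-0.33, edgeR adjusted p = 2.8e-07). The vasodilator peptide gene ADM (-0.24, SE 0.15), ANKRD37 (0.30, SE 0.27) and the histone demethylase gene KDM3A (0.06, SE 0.10) were not called with all samples or without DKO replicate 3. KDM3A had 8.43, 8.2 and 8.09 FPKM in DKO and 8.45, 7.88 and 8.2 in WT.

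Further genes of these pathways were taken from fixed lists, some of whose genes were already known to move in these data. Their counts stand against the 23.3% of all genes called higher and 22.2% called lower, or 36.0 and 38.6% when DKO replicate 3 was left out. Of 8 genes of the SLC2A carrier family tested, 4 rose and 2 fell in both fits. SLC2A1 (GLUT1, gene ID 103224987), the main basal glucose carrier and a HIF target, had 221.31, 237.64 and 232.23 FPKM in DKO and 56.82, 60.98 and 58.98 FPKM in WT. The samples of each group hardly differed, and SLC2A1 rose by 2.01 (SE 0.09, edgeR adjusted p = 8.7e-06), or 1.97 when DKO replicate 3 was left out. SLC2A4 (GLUT4), low in both, averaged 1.69 ± 0.225 in DKO and 0.290 ± 0.0794 in WT (2.59, SE 0.25), and SLC2A12 1.00 ± 0.229 in DKO and 0.480 ± 0.0954 in WT (1.15, SE 0.23). SLC2A10 (0.51, SE 0.12) rose too, and SLC2A3 (GLUT3, -0.52, SE 0.11) and SLC2A13 (-1.42, SE 0.47) fell. SLC2A13 was lowest in DKO replicate 3 and close to the threshold (edgeR adjusted p = 0.044), with -0.98 when that library was left out.

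Of 16 other tested glycolysis and glycogen genes, 5 rose and 3 fell, so 8 were called, a share near the 45.5% of all genes. Besides HKDC1, the glycogen phosphorylase gene PYGL rose to 54.4 ± 1.89 FPKM in DKO, against 15.9 ± 0.922 in WT (1.82, SE 0.11), and the ADP-dependent glucokinase gene ADPGK to 46.8 ± 1.01, against 28.3 ± 0.936 (0.76, SE 0.09). ENO3, the muscle enolase, was picked after its values were seen. It averaged 30.8 ± 7.23 FPKM in DKO and 84.7 ± 4.29 in WT (-1.42, SE 0.20). It stood above ENO2 in both genotypes, and in DKO it held 2.4 ± 0.253% of the summed enolases against 5.64 ± 0.289% in WT.

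Of the gluconeogenesis genes, 3 passed the filter on low counts and 3 rose. The pyruvate carboxylase gene PC averaged 15.8 ± 3.30 FPKM in DKO and 5.65 ± 0.605 in WT (1.53, SE 0.20), G6PC3 69.8 ± 8.11 in DKO and 35.4 ± 1.49 in WT (1.03, SE 0.14), and PCK2 38.6 ± 11.1 in DKO and 18.8 ± 2.25 in WT (1.10, SE 0.24). FBP1, the gluconeogenic fructose bisphosphatase, was under the filter and went the other way, with 0, 0 and 1 counts in DKO and 13, 12 and 6 in WT, or 3.37% of the WT level (exact 95% counting interval 0.0828 to 20.2%). The fit without DKO replicate 3 called it lower (edgeR adjusted p = 1.1e-05).

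Around pyruvate entry, 2 of 11 tested genes rose and 3 fell, 45.5% called, the same share as over all genes. The subunits of the mitochondrial pyruvate carrier went in opposite directions: MPC1 averaged 18.5 ± 6.64 FPKM in DKO and 6.50 ± 0.473 in WT (1.54, SE 0.25), and MPC2 13.9 ± 3.47 in DKO and 25.7 ± 0.580 in WT (-0.86, SE 0.17). The pyruvate dehydrogenase phosphatase gene PDP1 fell (-1.44, SE 0.19), as did DLD (-0.68, SE 0.19), and PDP2 rose (0.33, SE 0.11). EMB, which encodes embigin, a partner that brings lactate carriers to the membrane, had 0 counts in every DKO library and 671, 629 and 694 in WT, at least 212-fold lower against a floor of 3 counts per library. BSG, the partner better known for MCT1 and MCT4, averaged 436 ± 74.5 FPKM in DKO and 509 ± 30.7 in WT and was not called (-0.15, SE 0.17). It was called lower without DKO replicate 3 (-0.38). SLC16A7 (MCT2), a further lactate carrier, had 1 count in the DKO libraries and 65 in WT. This was 1.61% of the WT level (exact 95% counting interval 0.0401 to 9.29%). SLC16A7 was called lower (-5.52, SE 0.57, edgeR adjusted p = 0.00031).

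Of 12 tested HIF regulators, 4 rose and 3 fell. CITED2, which competes with the HIF alpha subunits for their coactivators, fell to 50.5 ± 8.44 FPKM in DKO, against 125 ± 5.53 in WT (-1.26, SE 0.12). ELOB, a subunit of the VHL complex, fell (-0.88, SE 0.17), as did the coactivator gene CREBBP (-0.47, SE 0.10). The 4 that rose were ARNT2, a paralog of ARNT (0.60, SE 0.16), RBX1, another subunit of the VHL complex (0.47, SE 0.11), the transmembrane prolyl hydroxylase gene P4HTM (0.84, SE 0.21) and the chaperone gene HSP90AA1 (0.45, SE 0.11). ARNT2 had 4.48, 4.48 and 5.23 FPKM in DKO and 2.93, 2.83 and 2.34 in WT, where ARNT was lower in all DKO samples (edgeR adjusted p = 0.019 for ARNT2). Of 33 other tested HIF targets, 13 rose and 4 fell, with a median of 0.27, and 16 rose and 8 fell when DKO replicate 3 was left out. Over all genes 23.3% were called higher and 22.2% lower, or 36.0 and 38.6% without that library. VEGFA, the classical angiogenic target, had 32.9, 30.68 and 29.77 FPKM in DKO and 61.01, 55.69 and 63.15 in WT, and fell by 0.93 on the log2 scale (SE 0.09, edgeR adjusted p = 0.00027). The collagen cross-linking enzyme gene LOX had 389.15, 411.27 and 244.28 FPKM in DKO and 13.96, 15.21 and 15.56 in WT and rose by 4.58 (SE 0.20, edgeR adjusted p = 8.7e-06). The lipoprotein receptor gene VLDLR (4.20, SE 0.15) and the hormone gene STC2 (3.23, SE 0.13) rose as well. Besides VEGFA, the genes that fell were BHLHE40 (-1.51, SE 0.12), HMOX1 (-1.40, SE 0.16) and KDM4B (-0.38, SE 0.13). SLC2A1 and VEGFA, both known targets of HIF, thus moved in opposite directions in every sample.

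**Figure D5:**
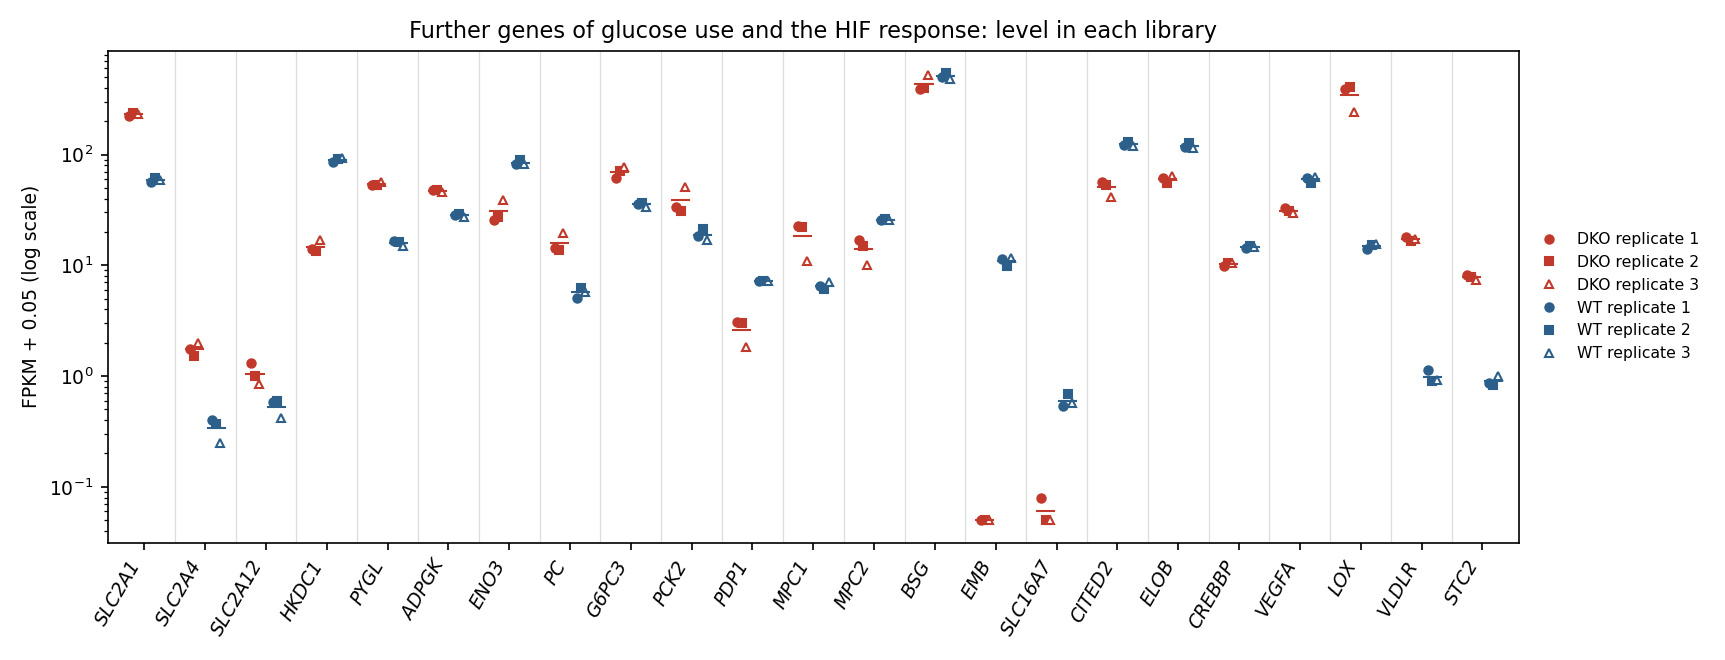
FPKM + 0.05 on a log axis of genes of glucose use and the HIF response outside the list, in each library (DKO in red, left; WT in blue, right; replicate 3 as open triangles), with a line at the mean. SLC2A1 is higher and HKDC1, EMB and VEGFA are lower in all DKO libraries, and EMB sits at the bottom of the axis in DKO, where it had 0 counts.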

How the data were processed

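RNA-seq libraries of 3 DKO and 3 WT samples of COS7 were made, per the labels' protocols, from TRIzol-extracted RNA with a BGI mRNA kit. The authors deposited estimated counts and FPKM for each gene and sample, per the file headers. Of tools, the submitters' processing notes list HISAT and Bowtie2; which program counted, with which strand setting and on which genome build is not given in the sources used here, so no coordinates or sequences are given. The table holds 9 columns of 3 further samples, which were not used. Of its gene IDs, 16730 (92.7%) are in the RefSeq table, which was used for names and gene order only.

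Estimated counts were rounded and fitted in edgeR 4.0.16 under R 4.3.3 (quasi-likelihood test, TMM, default filter with a minimum count of 10), with Benjamini-Hochberg adjustment over all genes tested. SE was taken as the fitted change over the root of F. Levels are deposited FPKM, which suit comparisons between genes. Shares of paralogs were compared by exact permutation over samples (scipy 1.17.1). Members, lists and tests were chosen with earlier results of these data known. Named genes were all members, and from each further list up to 3 genes with the smallest adjusted p, plus SLC2A1, VEGFA, BSG and EMB. ENO3, FBP1 and other genes of these lists outside that rule were chosen after their values were seen. Cell type markers were named as a check of the line. The pentose phosphate list is not reported here. Counts of ALDOA, PKM, LDHA and the PGAM1 row were not whole in any of the 6 libraries and those of PFKM in 2, as when reads are divided among similar sequences. Levels of these and of other glycolytic genes with pseudogenes, such as GAPDH, are uncertain to that extent. PFKM overlaps SENP1 and ANKRD37 overlaps LRP2BP in the RefSeq annotation. ALDOA overlaps another entry of the same symbol there, and PDK1, PDK3, ARNT, EGLN2 and VHL overlap genes with LOC symbols. Alternatives used DESeq2 1.42.0 and limma 3.58.1. The tests were checked on simulated counts with alike replicates and few changed genes. That check does not cover data where 1 library stands apart, as DKO replicate 3 does here. Figures were drawn with matplotlib 3.10.9.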

Additional observations from a re-analysis of the deposited data

How the results depend on the processing

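Leaving out DKO replicate 3 mattered most: 13 members were then called higher and 16 lower, against 7 and 6 with all samples, and the 29 included all 13 of the main calls in the same direction. Over the fits that each left out 1 sample, 5 to 13 were called higher and 4 to 16 lower. ALDOA (-0.17 there, up to 0.14 without another sample) and P4HA1 (0.13 there, down to -0.28) turned direction and were called without DKO replicate 3, and 4 more uncalled members (PFKL, PGK1, SLC16A3 and BNIP3) changed sign without a call. The cause was not tested. Of the 13 called members, 9 kept their call in each of 16 other fits that tested them, and HK1, PFKM, ARNT and NDRG1 lost it in some. With the replicate number as a block, 5 were higher and 4 lower. Deviations of same-numbered samples from their group means had correlations of 0.0215, -0.284 and -0.29. With DKO replicate 3 standing apart, these correlations cannot show whether the numbers pair the samples. DESeq2 called 7 higher and 8 lower, with BNIP3L and HIF1A added, and limma-voom 7 and 7. No filter, RLE or upper quartile scaling, totals without the 100 most abundant genes, and FPKM with limma gave 7 higher and 6 to 7 lower. A threshold of 0.01 left 5 and 4. Counting GPI and PGAM1, added after seeing the data, gave 7 and 8. No scaling moved the median of all genes by over 0.1. Over these fits 32.1 to 74.6% of all genes were called. Depth limits CA9, CA12 and ANKRD37, with at most 23 counts in any library.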
